A study of Homo sapiens with 9 samples.

Results

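The genes described here are 10 known targets of cAMP and of the transcription factor CREB, namely NR4A1, NR4A2, NR4A3, CREM, PDE4A, PDE4B, PDE4D, SIK1, RGS2 and PPARGC1A. They were taken by gene symbol from a table of expression values with 22295 entries, of which 19932 carry a gene symbol and not by a measured value, but the choice of these 10 was made with earlier results of these data known. All 10 were listed, each once, and all 10 passed the filter on low values (a mean of at least 0.1 FPKM over the libraries). The table holds RNA-seq of U251, an established human glioblastoma cell line, in 9 libraries of 3 groups. The sh-Luci-3d group (3 libraries) was infected for 3 days with a lentivirus carrying a control sh-RNA against luciferase. The sh-Ptbp1-3d and sh-Ptbp1-7d groups (3 libraries each) were infected for 3 and for 7 days with a lentivirus carrying an sh-RNA against PTBP1, an RNA-binding protein that represses splicing of neuronal exons. A single sh-RNA, chosen among several, was used throughout, and infected cells carried an M-cherry marker. The schedule placed cells of both viruses in a neuronal induction medium with N2, B27, forskolin and dorsomorphin from 2 days post infection (dpi). The labels do not state the medium of the sequenced cells. If that schedule was followed, the 3 dpi cells had spent fewer days with forskolin than the 7 dpi cells. The sh-Luci-3d and sh-Ptbp1-3d groups differ, by their labels, in the virus alone. For sh-Ptbp1-7d no control of the same day was analysed here, so knockdown, days in culture and days in the medium cannot be told apart in its comparisons.

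Forskolin activates adenylyl cyclases, the enzymes that make the second messenger cAMP. cAMP releases the catalytic subunits of protein kinase A, which phosphorylate CREB, and phosphorylated CREB recruits coactivators to the cAMP response element (CRE) in the promoters of its target genes. Many of the targets act back on the pathway. PDE4 enzymes degrade cAMP, RGS2 curbs signaling by G proteins, SIK1 phosphorylates and so restrains the CRTC coactivators of CREB, and CREM encodes activators as well as the repressor ICER, which is made from an internal promoter. Others pass the signal on: NR4A1, NR4A2 and NR4A3 are orphan nuclear receptors of the immediate-early type, and PPARGC1A is a coactivator of mitochondrial and metabolic genes. In neurons and glia these genes are familiar as responders to activity and to neuromodulators that raise cAMP.

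The CRE is shown first, as the element at which CREB acts, although the 10 genes were not chosen by this sequence. Promoter windows of RefSeq (GRCh38.p14), from 250 bases before to 50 bases after a transcription start site, were found for 9 of the 10 genes, in 33 windows, and NR4A2 was not matched. The palindrome TGACGTCA was searched for, and its shorter form TGACG on both strands, where it reads CGTCA when it lies on the other strand. Each palindrome also holds the shorter form on both strands. Stretches around the matches of 7 genes are given 5′ to 3′ on the strand of the gene, with matches in capitals, 1 window per gene.
NR4A3 (chr9:99821736-99821884, plus strand): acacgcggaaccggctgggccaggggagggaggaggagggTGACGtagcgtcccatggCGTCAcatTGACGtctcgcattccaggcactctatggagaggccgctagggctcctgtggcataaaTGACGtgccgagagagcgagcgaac
CREM (chr10:35195812-35195879, plus strand): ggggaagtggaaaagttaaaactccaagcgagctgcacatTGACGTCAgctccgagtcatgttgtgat
PDE4A (chr19:10416645-10416797, plus strand): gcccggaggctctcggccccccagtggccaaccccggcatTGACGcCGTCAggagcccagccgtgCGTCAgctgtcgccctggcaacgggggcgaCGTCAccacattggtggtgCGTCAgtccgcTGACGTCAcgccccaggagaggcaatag
PDE4D (chr5:59587658-59587722, minus strand): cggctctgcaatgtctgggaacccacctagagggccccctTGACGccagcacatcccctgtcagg
SIK1 (chr21:43427233-43427381, minus strand): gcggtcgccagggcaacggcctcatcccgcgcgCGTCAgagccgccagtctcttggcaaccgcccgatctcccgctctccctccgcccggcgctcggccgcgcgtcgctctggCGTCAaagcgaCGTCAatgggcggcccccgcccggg
RGS2 (chr1:192808818-192808882, plus strand): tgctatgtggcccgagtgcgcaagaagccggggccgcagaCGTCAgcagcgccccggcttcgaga
PPARGC1A (chr4:24473000-24473064, minus strand): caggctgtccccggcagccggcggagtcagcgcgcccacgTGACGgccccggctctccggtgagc
The palindrome occurred in windows of 2 genes, CREM and PDE4A, while 2.25% of the 27305 genes in the promoter table and 1.85% of its 35116 windows hold it. In CREM it lay at -50 from a start site inside the gene, and the neighbouring start site's window overlaps the same stretch. In PDE4A it lay at -3, beside further copies of the short form. The short form occurred in windows of 7 of the 9 genes, where 28.42% of all genes in the table hold it, and in 27.3% of their windows against 24.55% of all windows. The 9 genes have 1 to 8 windows each (33 for 9 genes, against 35116 for 27305 in the table), so their count by gene is not like for like. No match was found in the 2 windows of NR4A1 or the 6 windows of PDE4B. By GENCODE v29, the stretches of PDE4D and CREM lie within the gene, and those of NR4A3, CREM and PDE4A reach 30, 15 and 25 bases into an annotated 5′ untranslated exon. Those of PDE4A and RGS2 also fall in introns of CDC37 and AL390957.1, and those of SIK1 and PPARGC1A in no annotated gene. The PPARGC1A stretch belongs to a start site at 24472905, far upstream of the span that GENCODE v29 gives for the gene, whose upstream end is 23904089. The window of the other PPARGC1A start site, 23881101, lies inside that span and held no match. PPARGC1A thus counts among the 7 genes through the upstream window alone. These matches describe the letters of the windows only, and binding was not measured.

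The values are FPKM, fragment numbers divided by transcript length and by the size of the library, which the authors computed and deposited. FPKM is a level per length, so levels of different genes are compared on that scale. The depth behind the values is unknown, since they do not fall in steps of whole reads, and no counting interval can be given. FPKM sums ranged from 367412 to 404922 per library, and no pair of libraries was identical. Mitochondrial genes took 8.68 to 13.3% of the sum in sh-Luci-3d, 10.2 to 10.9% in sh-Ptbp1-3d and 6.10 to 8.53% in sh-Ptbp1-7d. PTBP1 averaged 115.7 ± 7.58 FPKM (SD, n = 3) in sh-Luci-3d, 63.9 ± 2.67 in sh-Ptbp1-3d and 50.5 ± 0.645 in sh-Ptbp1-7d, with no overlap between groups. The glioma line markers VIM, NES, CD44, TNC and SOX2 were all detected in every library, while the astroglial markers GFAP and S100B were low (means of 0.463 and 0.344 FPKM). The summed level of the 7 glioma line markers was 4444 to 4568 FPKM in sh-Luci-3d, 4551 to 4861 in sh-Ptbp1-3d and 1444 to 1536 in sh-Ptbp1-7d, mostly VIM, with CD44 also lower at 7 dpi. Others of the list went the other way from 3 to 7 dpi of knockdown, with TNC at 22.9 to 26.7 and then 59.6 to 91.9 FPKM, SOX2 at 121.5 to 126.4 and then 137.6 to 149.1, and S100B at 0.070 to 0.180 and then 0.663 to 0.933. The sum of 6 neuronal markers was 270.7 to 320.5, 341.1 to 349.4 and 163.9 to 170.4 FPKM in the same order, mostly TUBB3, with RBFOX3 and SYN1 near 0. MAP2 went the other way from TUBB3, with 18.1 to 24.1 FPKM at 3 dpi and 34.0 to 41.4 at 7 dpi of knockdown, as did SNAP25, with 2.05, 2.14 and 3.86 FPKM in the former and higher levels in all 3 libraries of the latter (up to 4.84). The sum of 6 blood and immune markers was 10.18 to 11.58, 10.86 to 11.32 and 16.31 to 18.98 FPKM, nearly all CD68, with CD3E at 0 in all libraries. The part of these shifts in the results below was not tested, and in bulk RNA fewer cells of a type and less RNA per cell cannot be told apart.

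Differences were tested with limma on log2(FPKM + 0.1) over 15551 genes, and fold changes on this scale understate the change of genes with low values. A difference was called past both thresholds when the fold change exceeded 2 at a Benjamini-Hochberg FDR below 0.05 between the groups of 3 dpi, or below 0.01 for the comparisons with sh-Ptbp1-7d. Nothing in the sources used here says that the 3 libraries of a group came from separate cultures, so the p-values measure the spread between these libraries, which may be technical.

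From 3 to 7 dpi of PTBP1 knockdown, most of the cAMP and CREB targets rose. Against sh-Ptbp1-3d, 7 of the 10 genes rose past the FDR in sh-Ptbp1-7d (RGS2, PDE4B, PPARGC1A, NR4A2, PDE4D, CREM and SIK1), where 20.3% of all genes tested did. One of the 10, PDE4A, fell past the FDR, as did 15.5% of all genes. Past both thresholds, 5 rose (RGS2, PDE4B, PPARGC1A, NR4A2 and PDE4D) and 0 fell, against 8.31% higher and 5.9% lower among all genes. The median log2 fold change was 1.07 over the 10 genes and 0.092 over all genes tested. For 9 of the 10, all but NR4A1, there was no overlap between these libraries, but 62.3% of all genes tested also showed none.

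**Figure D1:**
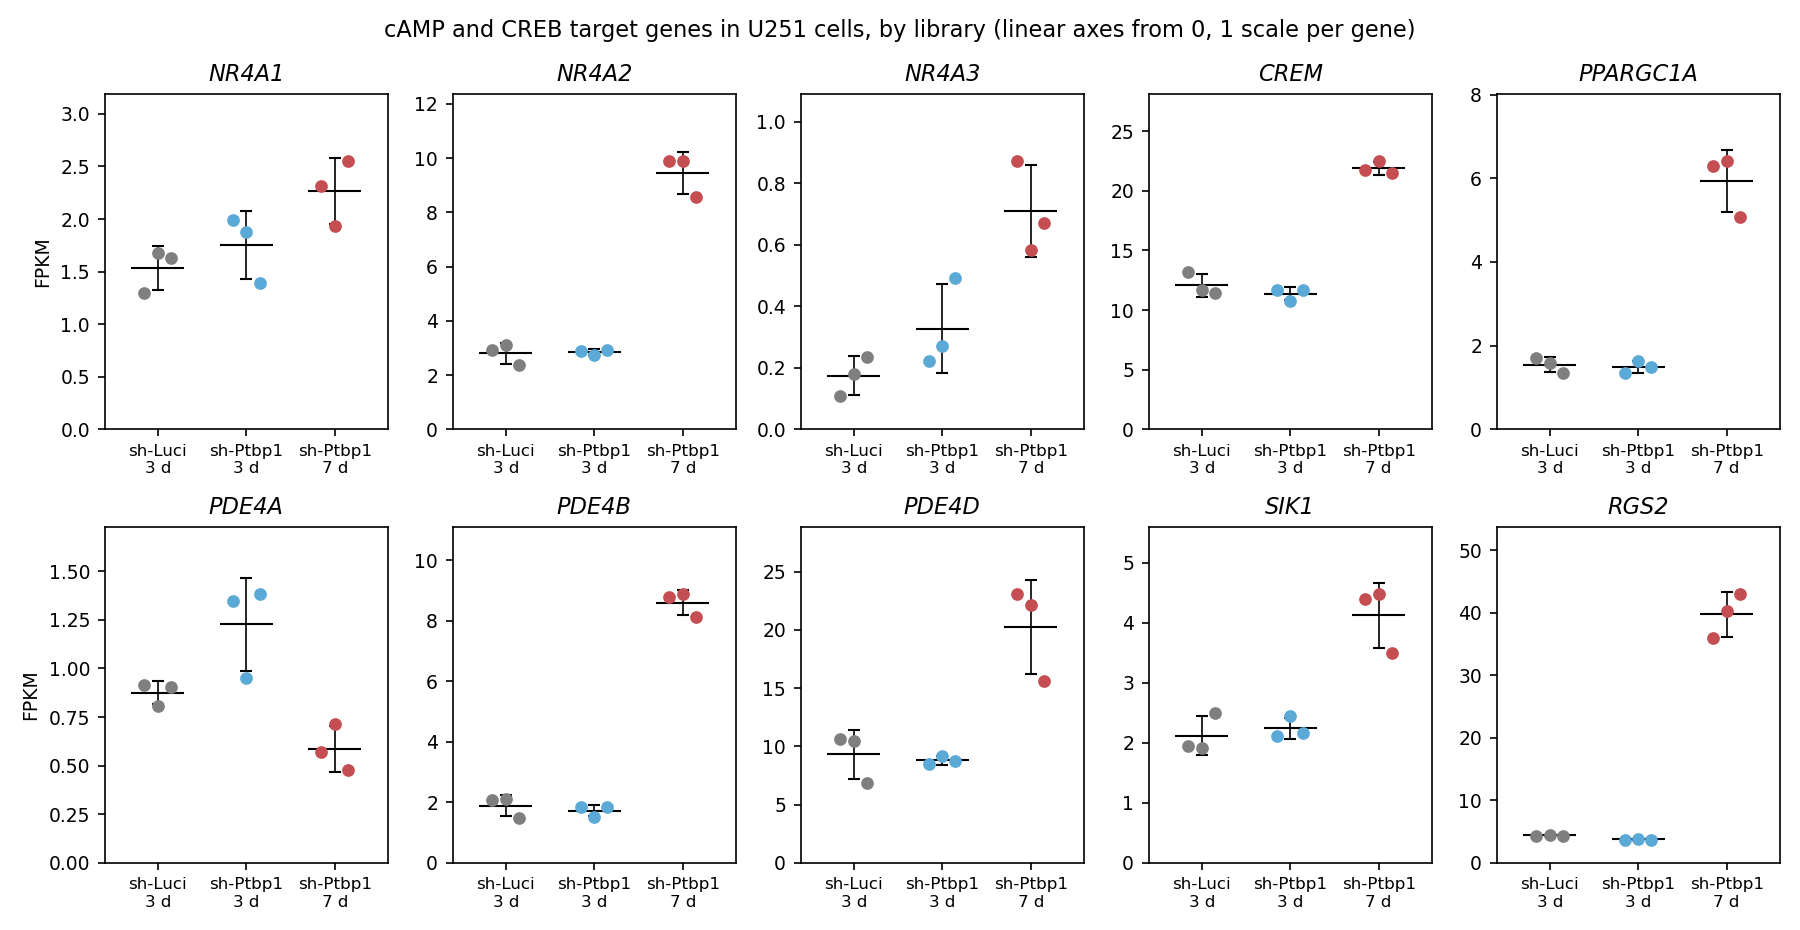
FPKM of the 10 genes in each of the 9 libraries, on a linear axis from 0 for each gene, with points for libraries, a horizontal line for the group mean and bars for the SD (n = 3). In RGS2, PDE4B, PPARGC1A, NR4A2, CREM, SIK1 and PDE4D the 3 sh-Ptbp1-7d libraries lie above all 6 libraries of 3 dpi, and in PDE4A they lie below them.

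RGS2, on chromosome 1 (192809039 to 192812283, plus strand, GRCh38 by GENCODE v29), showed the largest rise of the 10 genes. Its levels were 4.33, 4.47 and 4.31 FPKM in sh-Luci-3d, 3.67, 3.83 and 3.69 in sh-Ptbp1-3d, and 36.0, 40.3 and 43.0 in sh-Ptbp1-7d. Every library of 7 dpi was thus far above every library of 3 dpi, and the spread within each group was small (SD 0.089, 0.087 and 3.55). The ratio of the group means between 7 and 3 dpi of knockdown was 10.7, and the log2 fold change was 3.38 (SE 0.091, limma adjusted p = 1.89e-09), higher than that of 99.5% of the genes tested. RGS2 accelerates the GTPase of G protein alpha subunits, mainly Gq, and is also known to dampen adenylyl cyclase. Other RGS genes had been listed beside it. RGS4 rose from 136.8 ± 4.05 to 230.4 ± 5.52 FPKM (log2 fold change 0.75, SE 0.084, limma adjusted p = 3.37e-05), and RGS16 rose from 0.362 ± 0.071 to 2.40 ± 0.281 (2.44, SE 0.289, limma adjusted p = 4.98e-05).

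The PDE4 genes encode cAMP-specific phosphodiesterases and moved in opposite directions. PDE4B, on chromosome 1 (65792514 to 66374579, plus strand), stood at 2.09, 2.11 and 1.48 FPKM in sh-Luci-3d, at 1.83, 1.51 and 1.84 in sh-Ptbp1-3d and at 8.80, 8.88 and 8.12 in sh-Ptbp1-7d. The groups of 3 dpi overlapped and the 7 dpi libraries stood apart above them. Its log2 fold change from 3 to 7 dpi was 2.26 (SE 0.153, limma adjusted p = 8.87e-07), a ratio of means of 4.98.

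PDE4D, which spans 1553 kb of chromosome 5 (58969038 to 60522120, minus strand), was the most abundant PDE4 gene in every library. It measured 10.6, 10.5 and 6.87 FPKM in sh-Luci-3d, 8.44, 9.19 and 8.74 in sh-Ptbp1-3d, and 23.1, 22.1 and 15.6 in sh-Ptbp1-7d. It rose by a log2 fold change of 1.18 from 3 to 7 dpi (SE 0.182, limma adjusted p = 0.00034), and the lowest library of 7 dpi remained above the highest of 3 dpi. The 2 low libraries of PDE4D, sh-Luci-3d replicate 3 and sh-Ptbp1-7d replicate 3, were also low in other long genes. Over 808 genes spanning at least 200 kb, the median log2 deviation from the group mean was -0.17 and -0.13 in these libraries, against -0.020 and -0.026 over 10297 shorter genes, and that of PDE4D was -0.41 and -0.35. A fit without both libraries was added after the data were seen, and its PDE4D log2 fold change from 3 to 7 dpi was 1.35 (SE 0.064, limma adjusted p = 1.38e-06). Leaving out libraries in which PDE4D was low by itself raises its 7 dpi mean and narrows its spread. That fit is therefore no check of the rise. The mitochondrial share also set these libraries apart within their groups, at 8.68% against 12.8 and 13.3% in sh-Luci-3d and at 8.53% against 6.10 and 6.46% in sh-Ptbp1-7d. What made long genes low there was not tested. In PDE4D, 1.39% of exon bases overlap exons of the lincRNA PART1 on the opposite strand, and whether the FPKM were counted by strand is not given in the sources used here.

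PDE4A, on chromosome 19 (10416773 to 10469631, plus strand), was the 1 gene of the 10 that fell. Levels were 0.914, 0.808 and 0.905 FPKM in sh-Luci-3d, 1.35, 0.950 and 1.38 in sh-Ptbp1-3d, and 0.571, 0.712 and 0.477 in sh-Ptbp1-7d. The 3 groups did not overlap in any pair, with the knockdown highest at 3 dpi and lowest at 7 dpi. From 3 to 7 dpi the log2 fold change was -0.95 (SE 0.207, limma adjusted p = 0.00315), less than 2-fold on the scale of log2(FPKM + 0.1), while the ratio of means was 0.478. PDE4A fell past both thresholds with a pseudocount of 0.01 (-1.05), with median-ratio scaling (-1.02), with quantile normalization (-1.19) and without replicate 2 of sh-Ptbp1-3d (-1.11) or of sh-Ptbp1-7d (-1.08). This call at an FDR of 0.01 was lost when replicate 1 or 3 of either knockdown group was left out, with limma adjusted p between 0.011 and 0.0162. Of its 5 promoter windows, 1 held any match, the one shown above with the palindrome. That window has 7 copies of the short form, those inside the palindrome included, the most among the windows of these genes. Gene-level FPKM do not show which start site was used.

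Summed over the PDE4 family, levels were 12.1 ± 2.46 FPKM (SD, n = 3) in sh-Luci-3d, 11.8 ± 0.211 in sh-Ptbp1-3d and 29.5 ± 4.54 in sh-Ptbp1-7d. PDE4C, the remaining member, was listed at 0 in 8 of 9 libraries. PDE4A made up 10.4 ± 1.97% of the family sum in sh-Ptbp1-3d and 1.99 ± 0.243% in sh-Ptbp1-7d, while PDE4B made up 14.7 ± 1.47% and 29.5 ± 3.45%. PDE4D stayed the largest share, with 74.8 ± 3.52% and 68.5 ± 3.47%. The log2 ratio of PDE4B to PDE4A was 1.10 ± 0.35 in sh-Luci-3d, 0.51 ± 0.14 in sh-Ptbp1-3d and 3.89 ± 0.23 in sh-Ptbp1-7d, and that of PDE4D to PDE4A was 3.39 ± 0.41, 2.86 ± 0.36 and 5.11 ± 0.20. From 3 to 7 dpi of knockdown these ratios were higher by 3.38 and 2.25 (both exact permutation p = 0.1, two-sided, 0.129 after Benjamini-Hochberg over 9 ratio tests). With 3 libraries against 3, 0.1 is the smallest p this exact test allows.

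**Figure D2:**
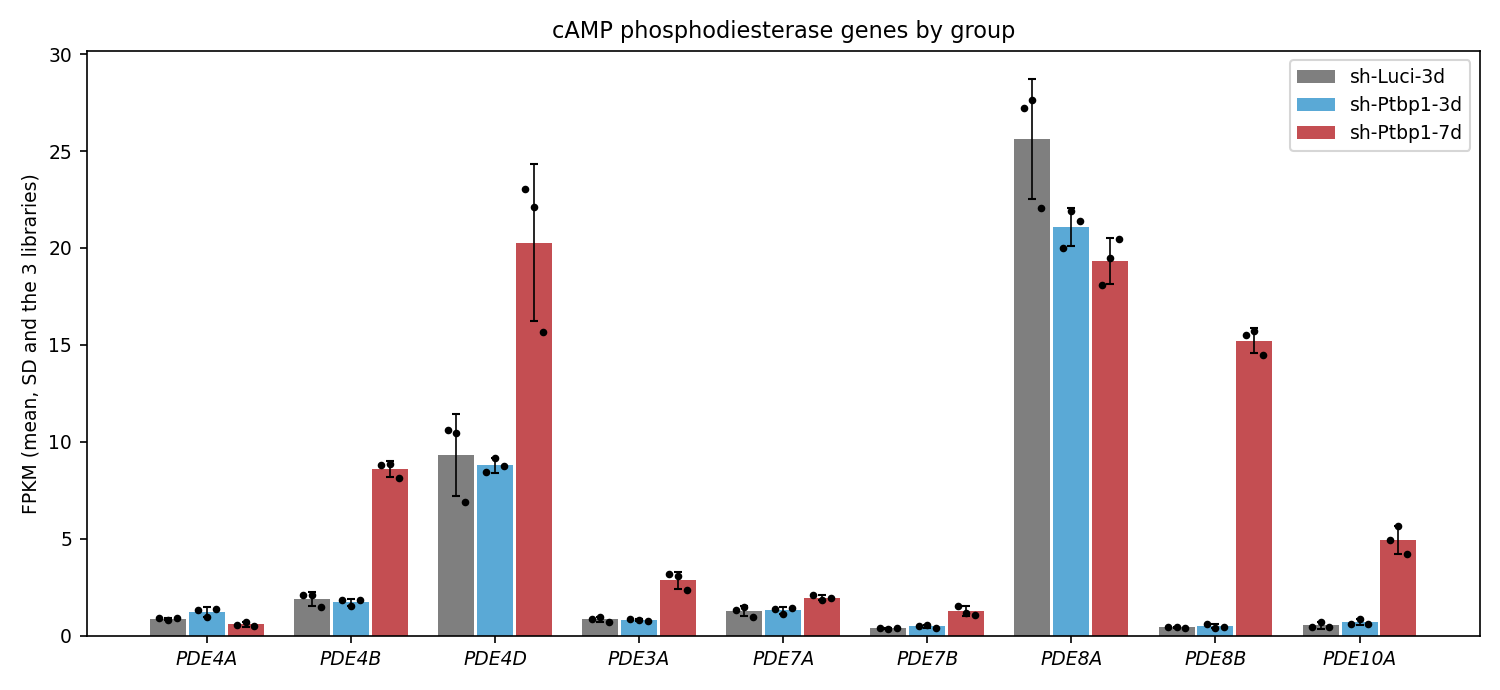
FPKM of 9 genes of cAMP-degrading phosphodiesterases by group, with bars for the mean, error bars for the SD and points for the 3 libraries, on a linear axis from 0. PDE4D, PDE4B, PDE8B and PDE10A stand higher in sh-Ptbp1-7d than in either group of 3 dpi, PDE4A stands lower, and PDE8A is the highest at 3 dpi.

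SIK1, on chromosome 21 (43414483 to 43427189, minus strand), encodes salt-inducible kinase 1. It was measured at 1.94, 1.92 and 2.50 FPKM in controls, 2.11, 2.45 and 2.16 in sh-Ptbp1-3d, and 4.40, 4.48 and 3.49 in sh-Ptbp1-7d. The 7 dpi libraries lay above the others, and the log2 fold change from 3 to 7 dpi was 0.85 (SE 0.151, limma adjusted p = 0.000896). SIK1B, a near-identical copy on the same chromosome (6111134 to 6123739, plus strand), can take reads of SIK1 in the counting, so the split between them is uncertain. The copy read 4.67, 4.07 and 3.88 FPKM in the 3 dpi knockdown and 7.17, 7.67 and 6.39 in that of 7 dpi. The sum of the pair rose from 6.45 ± 0.380 to 11.2 ± 1.18 FPKM (log2 fold change 0.78, SE 0.105, limma adjusted p = 0.000124). The related kinases SIK2 and SIK3 did not pass, with log2 fold changes of 0.17 (limma adjusted p = 0.170) and 0.32 (limma adjusted p = 0.0475).

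CREM, on chromosome 10 (35126791 to 35212958, plus strand), was the highest of the 10 genes at 3 dpi. Its libraries read 13.2, 11.7 and 11.4 FPKM in sh-Luci-3d, 11.7, 10.7 and 11.7 in sh-Ptbp1-3d and 21.7, 22.5 and 21.5 in sh-Ptbp1-7d. The groups of 3 dpi overlapped, and the 7 dpi group was tight (SD 0.556) and clear of both. The log2 fold change from 3 to 7 dpi was 0.94 (SE 0.085, limma adjusted p = 6.90e-06), short of 2-fold. GENCODE v29 lists 48 CREM transcripts, and the gene-level FPKM do not separate activator forms from ICER, whose promoter is the internal one. In CREM, 3.6% of exon bases overlap an antisense gene.

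Among the nuclear receptors, NR4A2 rose most on the FPKM scale. NR4A2 (NURR1), a factor needed for dopaminergic neurons, lies on chromosome 2 (156324432 to 156342348, minus strand). Libraries of sh-Luci-3d gave 2.93, 3.11 and 2.37 FPKM, followed by 2.89, 2.73 and 2.91 in sh-Ptbp1-3d and 9.88, 9.91 and 8.57 in sh-Ptbp1-7d. The sh-Ptbp1-3d libraries lay within the range of sh-Luci-3d, and those of 7 dpi lay above both. The rise from 3 to 7 dpi was 1.69 on the log2 scale (SE 0.125, limma adjusted p = 1.64e-06), a ratio of means of 3.32.

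NR4A3 (NOR1), on chromosome 9 (99821855 to 99866891, plus strand), was the lowest of the family. Its values were 0.109, 0.181 and 0.235 FPKM in sh-Luci-3d, 0.221, 0.271 and 0.491 in sh-Ptbp1-3d, and 0.873, 0.582 and 0.669 in sh-Ptbp1-7d. The groups of 3 dpi overlapped each other, and those of 7 dpi lay above both. From 3 to 7 dpi the log2 fold change was 0.95 (SE 0.308) with a limma adjusted p of 0.0247, which missed the FDR of 0.01, and the ratio of means was 2.16.

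NR4A1 (NUR77), on chromosome 12 (52022832 to 52059507, plus strand), differed least. Values of 1.29, 1.67 and 1.63 FPKM were found in sh-Luci-3d, 1.99, 1.88 and 1.39 in sh-Ptbp1-3d and 2.32, 1.93 and 2.56 in sh-Ptbp1-7d, where the lowest library of 7 dpi was below the highest of 3 dpi knockdown. The log2 fold change of 0.36 (95% interval -0.041 to 0.76) did not pass (limma adjusted p = 0.123). Of its exon bases, 10.3% overlap a lincRNA on the opposite strand.

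The sum of the NR4A genes was 4.51 ± 0.396 FPKM in sh-Luci-3d, 4.93 ± 0.159 in sh-Ptbp1-3d and 12.4 ± 0.638 in sh-Ptbp1-7d. NR4A2 supplied 57.8 ± 2.62% of it in sh-Ptbp1-3d and 76.0 ± 3.58% in sh-Ptbp1-7d, and NR4A1 supplied 35.5 ± 5.66% and 18.3 ± 3.11%. The log2 ratio of NR4A2 to NR4A1 was 0.71 ± 0.31 and 2.07 ± 0.31 in these groups, higher by 1.35 at 7 dpi (exact permutation p = 0.1, two-sided, 0.129 adjusted over the 9 ratio tests). The ratio did not overlap between them.

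PPARGC1A (PGC-1 alpha), on chromosome 4 (23755041 to 23904089, minus strand), coactivates nuclear receptors in mitochondrial biogenesis and gluconeogenesis. The control libraries held 1.70, 1.58 and 1.35 FPKM, beside 1.34, 1.62 and 1.48 in sh-Ptbp1-3d and 6.29, 6.42 and 5.08 in sh-Ptbp1-7d. Again the groups of 3 dpi overlapped and the 7 dpi libraries stood above them. It rose by 1.93 on the log2 scale from 3 to 7 dpi (SE 0.148, limma adjusted p = 2.12e-06), a ratio of means of 4.01. Its relative PPARGC1B was at 0.322 ± 0.049 and 0.297 ± 0.107 FPKM and did not pass (log2 fold change -0.12, limma adjusted p = 0.758), while PPRC1 rose from 9.15 ± 1.16 to 15.2 ± 0.766 FPKM (0.73, SE 0.102, limma adjusted p = 0.000163).

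At 3 dpi, where both groups were of the same day, the question was whether the knockdown moved these genes. None of the 10 passed the FDR in sh-Ptbp1-3d against sh-Luci-3d by limma, where 0.0322% of all genes did, and none passed both thresholds (0.0129% of all genes). The study itself reports more genes than this fit at the same fold and FDR. Without sh-Luci-3d replicate 3, 993 genes (6.37%) of all tested passed the FDR, and 0 of the 10. So few calls do not show that the knockdown left RNA levels unchanged at 3 dpi. At an unadjusted p under 0.05 there was 1 of the 10, RGS2, and 1126 of the 15551 genes. RGS2 was lower in all 3 knockdown libraries than in any control, by a log2 fold change of -0.22 (SE 0.091, limma adjusted p = 0.652), opposite in sign to its later rise. RGS2 and PDE4A were the 2 genes of the 10 without overlap, and 10.8% of all genes had none. PDE4A was higher in knockdown (0.43, SE 0.207, limma adjusted p = 0.716), and NR4A3 was too, with overlap (0.61, SE 0.308, limma adjusted p = 0.724). The remaining 7 log2 fold changes lay between -0.11 and 0.18. The median of the 10 was -0.013, against 0.010 for all genes tested. The 95% intervals of limma on the log2 scale ran from -0.25 to 0.31 for NR4A2 and from -0.38 to 0.27 for PPARGC1A, and were wider for NR4A3 (-0.068 to 1.30, which holds changes above 2-fold) and PDE4A (-0.030 to 0.89).

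The comparison of sh-Ptbp1-7d with sh-Luci-3d uses the same 7 dpi libraries again and is not independent of the one within the knockdown. Here 8 of the 10 genes rose past the FDR (20.6% of all genes did) and 0 fell (15% of all genes), and 6 rose past both thresholds (8.93%) with 0 lower (5.68%). The median log2 fold change was 1.34, against 0.099 over all genes. No gene of the 10 showed overlap between these libraries, and neither did 55.9% of all genes tested. The log2 fold changes were 3.15 for RGS2, 2.14 for PDE4B, 1.87 for PPARGC1A, 1.73 for NR4A2 and 1.12 for PDE4D. NR4A3, which did not pass between 3 and 7 dpi of knockdown, passed both thresholds here (1.57, SE 0.308, limma adjusted p = 0.00163). SIK1 and CREM rose past the FDR but by less than 2-fold (0.93 and 0.86), NR4A1 missed the FDR of 0.01 (0.54, limma adjusted p = 0.0299), and so did PDE4A (-0.52, limma adjusted p = 0.058).

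**Figure D3:**
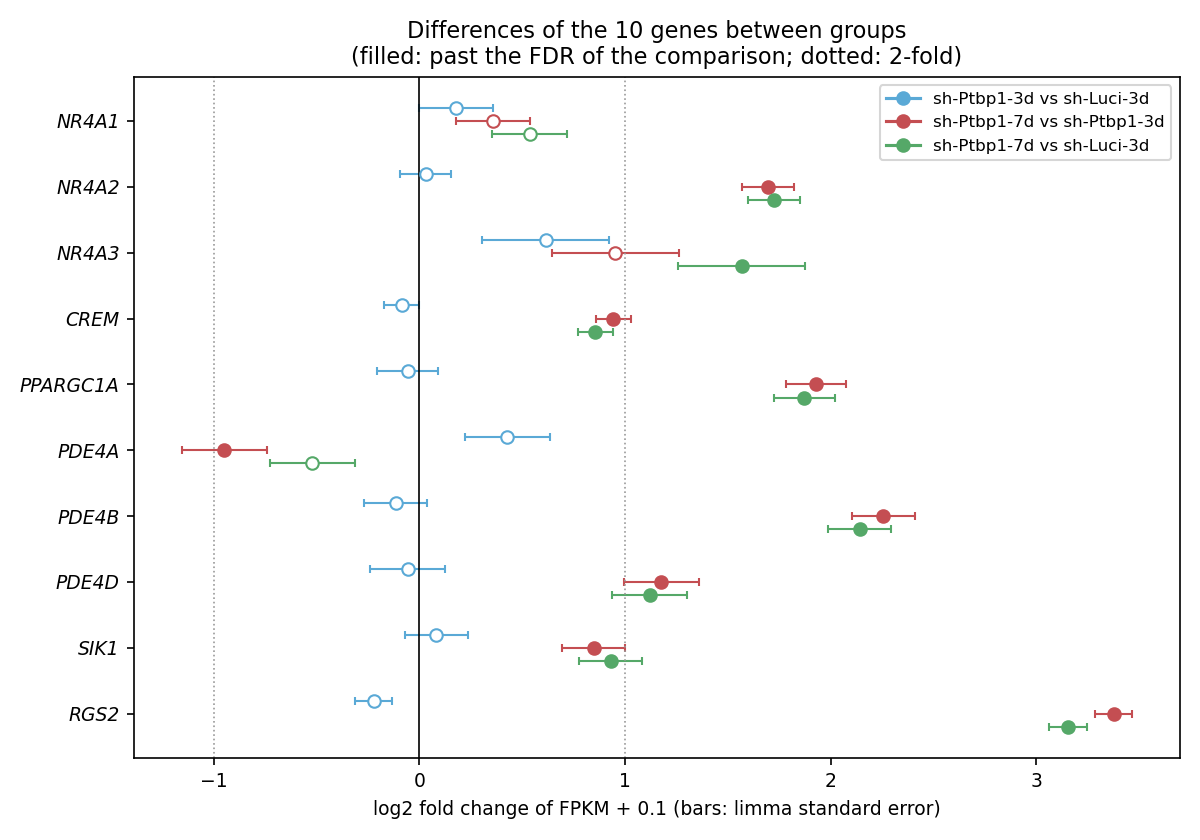
Log2 fold change of FPKM + 0.1 of the 10 genes in the 3 comparisons, with bars for the standard error of limma, filled points for genes past the FDR of the comparison and dotted lines at 2-fold. Points of sh-Ptbp1-3d against sh-Luci-3d are all open and lie between -0.22 (RGS2) and 0.61 (NR4A3), with PDE4A at 0.43. In both comparisons of sh-Ptbp1-7d RGS2 lies farthest to the right (3.38 and 3.15) and PDE4A to the left of 0 (-0.95 and -0.52).

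The order of the levels changed with the rise. By single entries, CREM was the highest in both groups of 3 dpi, followed by PDE4D and RGS2, each clear of the next, and NR4A3 was the lowest. In sh-Ptbp1-7d, RGS2 was the highest at 39.8 ± 3.55 FPKM, clear of CREM at 21.9 ± 0.556 and PDE4D at 20.3 ± 4.04, which overlapped each other. NR4A2 (9.45 ± 0.767) and PDE4B (8.60 ± 0.418) overlapped as well, below them. PPARGC1A (5.93 ± 0.741), SIK1 (4.12 ± 0.547) and NR4A1 (2.27 ± 0.316) followed, each clear of its neighbours, and NR4A3 and PDE4A overlapped at the bottom with 0.708 ± 0.149 and 0.587 ± 0.118 FPKM. The place of SIK1 in these orders is uncertain, as is its split with SIK1B. Their sum was 5.62 ± 0.308 FPKM in sh-Luci-3d, 6.45 ± 0.380 in sh-Ptbp1-3d and 11.2 ± 1.18 in sh-Ptbp1-7d. That sum lay above RGS2 in both groups of 3 dpi and overlapped NR4A2 at 7 dpi.

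To see which genes followed the same course, the log2 values of the 10 genes were standardized and averaged over the 9 libraries. Pearson's r of single members with that average ran from 0.75 (NR4A1) to 0.99 (NR4A2) and was -0.73 for PDE4A. Each member is itself part of the average, which raises its r, so these values are not like those of genes outside the 10. Outside the 10, the closest were NTNG2 (r = 0.998), a membrane-anchored netrin relative, the zinc finger gene ZNF436 (0.997), LZTS1 (0.997), MEX3C (0.996) and SH3BP5 (0.996). NTNG2 averaged 2.01 FPKM in sh-Luci-3d, 2.75 in sh-Ptbp1-3d and 17.4 in sh-Ptbp1-7d. These values are a description over 9 libraries that fall into groups, and 1974 of the 11332 genes compared had an r above 0.9.

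The rest of the pathway was read from 6 lists of 60 genes, of which 49 passed the filter on low values. RAPGEF4 and PCK1 passed it through sh-Ptbp1-7d alone, so they could enter the counts for that group only as genes that rose. From 3 to 7 dpi of knockdown, 23 of the 49 rose and 5 fell past the FDR, where 20.3% of all genes tested rose and 15.5% fell, and the median log2 fold change was 0.44 against 0.092 over all genes. Compared with the control, 21 rose and 6 fell in sh-Ptbp1-7d (20.6% and 15% of all genes), with a median of 0.46 against 0.099. In sh-Ptbp1-3d against sh-Luci-3d, 0 of the 49 passed, with a median of 0.049. Without sh-Luci-3d replicate 3, however, 5 of them passed that last comparison. These were PRKACA (0.37), PRKAR1B (0.39), PDE8A (-0.38), JUNB (0.49) and SCG2 (-0.51), beside 993 genes (6.37%) of all tested and 0 of the 10 genes described here.

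Upstream, of 5 adenylyl cyclase genes tested from 3 to 7 dpi of knockdown, 2 rose and 2 fell past the FDR, beside 20.3% and 15.5% of all genes. ADCY5 rose from 0.124 ± 0.033 to 0.397 ± 0.058 FPKM (log2 fold change 1.15, limma adjusted p = 0.00521), and ADCY7 fell from 3.12 ± 0.188 to 1.51 ± 0.361 (-1.02, limma adjusted p = 0.000505). ADCY6 rose (0.78) and ADCY3 fell (-0.46) by less than 2-fold, ADCY9 did not pass (0.44, limma adjusted p = 0.0143), and 5 further cyclases were too low to be tested. Against sh-Luci-3d, ADCY5 did not pass (1.01, limma adjusted p = 0.0108) and ADCY7 fell by less than 2-fold (-0.84, limma adjusted p = 0.00179). Of 11 genes of cAMP sensors, 2 rose, 2 fell and 7 did not pass, shares near those of all genes. The kinase A catalytic genes did not pass, with log2 fold changes of -0.29 for PRKACA (limma adjusted p = 0.0793) and -0.32 for PRKACB (limma adjusted p = 0.0867). PRKAR2A, a regulatory subunit, fell from 13.9 ± 0.451 to 5.12 ± 0.860 FPKM (-1.44, limma adjusted p = 3.74e-06), and so did the kinase inhibitor gene PKIB (-1.18, limma adjusted p = 0.00067), while its relative PKIA rose (0.90, limma adjusted p = 0.000545) but did not pass against sh-Luci-3d (0.51, limma adjusted p = 0.0155). RAPGEF4 (EPAC2), a cAMP-activated exchange factor for Rap, rose from 0.058 ± 0.0070 to 0.652 ± 0.141 FPKM (2.23, limma adjusted p = 0.00016). In both groups of 3 dpi it was below the filter of 0.1 FPKM, which it passed through sh-Ptbp1-7d alone. It could thus be tested, and counted among the sensors that rose, only because it was higher there.

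Of the 7 genes of CREB factors and coactivators, 3 rose and 0 fell past the FDR, where 20.3% of all genes rose and 15.5% fell. CREB1 itself averaged 5.38 ± 0.482 FPKM at 3 dpi and 6.36 ± 1.35 at 7 dpi of knockdown (0.22, limma adjusted p = 0.337), and ATF1, its close relative, did not pass either (-0.16, limma adjusted p = 0.300). CRTC3, one of the coactivators that SIK kinases hold in the cytoplasm, rose from 4.84 ± 0.529 to 10.4 ± 1.31 FPKM (1.09, SE 0.126, limma adjusted p = 4.26e-05). The acetyltransferase genes CREBBP and EP300 rose by 0.44 and 0.58 on the log2 scale, past the FDR and under 2-fold.

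Other cAMP phosphodiesterases rose beside PDE4B and PDE4D, with 4 of 6 tested past both thresholds and 0 lower, where 8.31% of all genes were higher and 5.9% lower. PDE8B rose from 0.612, 0.409 and 0.455 FPKM in sh-Ptbp1-3d to 15.5, 15.7 and 14.5 in sh-Ptbp1-7d (log2 fold change 4.71, SE 0.157, limma adjusted p = 8.07e-09). PDE10A (2.66), PDE3A (1.69) and PDE7B (1.21) also rose. PDE8A, the highest of them, did not pass at 21.1 ± 0.987 and 19.3 ± 1.19 FPKM (-0.12, limma adjusted p = 0.327), but fell against sh-Luci-3d (-0.40, limma adjusted p = 0.00694). Summed over 11 phosphodiesterases of the lists, the PDE4 genes included, the level was 41.2 ± 6.04 FPKM in sh-Luci-3d, 36.6 ± 0.932 in sh-Ptbp1-3d and 75.1 ± 5.49 in sh-Ptbp1-7d. Of that sum, PDE4B made up 4.72 ± 0.575% at 3 dpi and 11.5 ± 0.294% at 7 dpi of knockdown, PDE4D 24.0 ± 0.583% and 26.8 ± 3.62%, PDE8A 57.5 ± 1.28% and 25.9 ± 3.40%, and PDE8B 1.35 ± 0.330% and 20.3 ± 0.639%.

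Of 14 further CREB targets tested, 9 rose past the FDR, 1 fell and 4 did not pass, where 20.3% of all genes rose and 15.5% fell. Their median log2 fold change was 1.08, against 0.092 over all genes. SCG2, the precursor of secretoneurin, rose from 1.89, 1.87 and 1.94 FPKM to 50.9, 51.5 and 45.9 (4.63, SE 0.099, limma adjusted p = 6.52e-10). The immediate-early genes FOS and EGR1 rose by 2.45 (SE 0.402, limma adjusted p = 0.000511) and 2.41 (SE 0.151, limma adjusted p = 4.82e-07) on the log2 scale. STC1 (1.81), a secreted glycoprotein gene, and GEM (1.60), a small GTPase gene, rose as well. PCK1, the gluconeogenic enzyme that PPARGC1A is known to coactivate, was listed at 0 in all 6 libraries of 3 dpi and at 0.315, 0.365 and 0.370 FPKM in sh-Ptbp1-7d, and no fold is given. It is 1 of the 9 counted above as risen. It passed the filter on low values through sh-Ptbp1-7d alone, so it could enter that count only as a gene that rose. CGA, the shared alpha subunit of glycoprotein hormones and a classical CRE gene, fell from 8.02 ± 1.34 to 1.20 ± 0.687 FPKM (-2.79, SE 0.337, limma adjusted p = 5.92e-05). BDNF, PER1, FOSB and VGF did not pass. DUSP1 and ATF3 rose past both thresholds (1.09 and 1.07) and JUNB past the FDR (0.88).

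**Figure D4:**
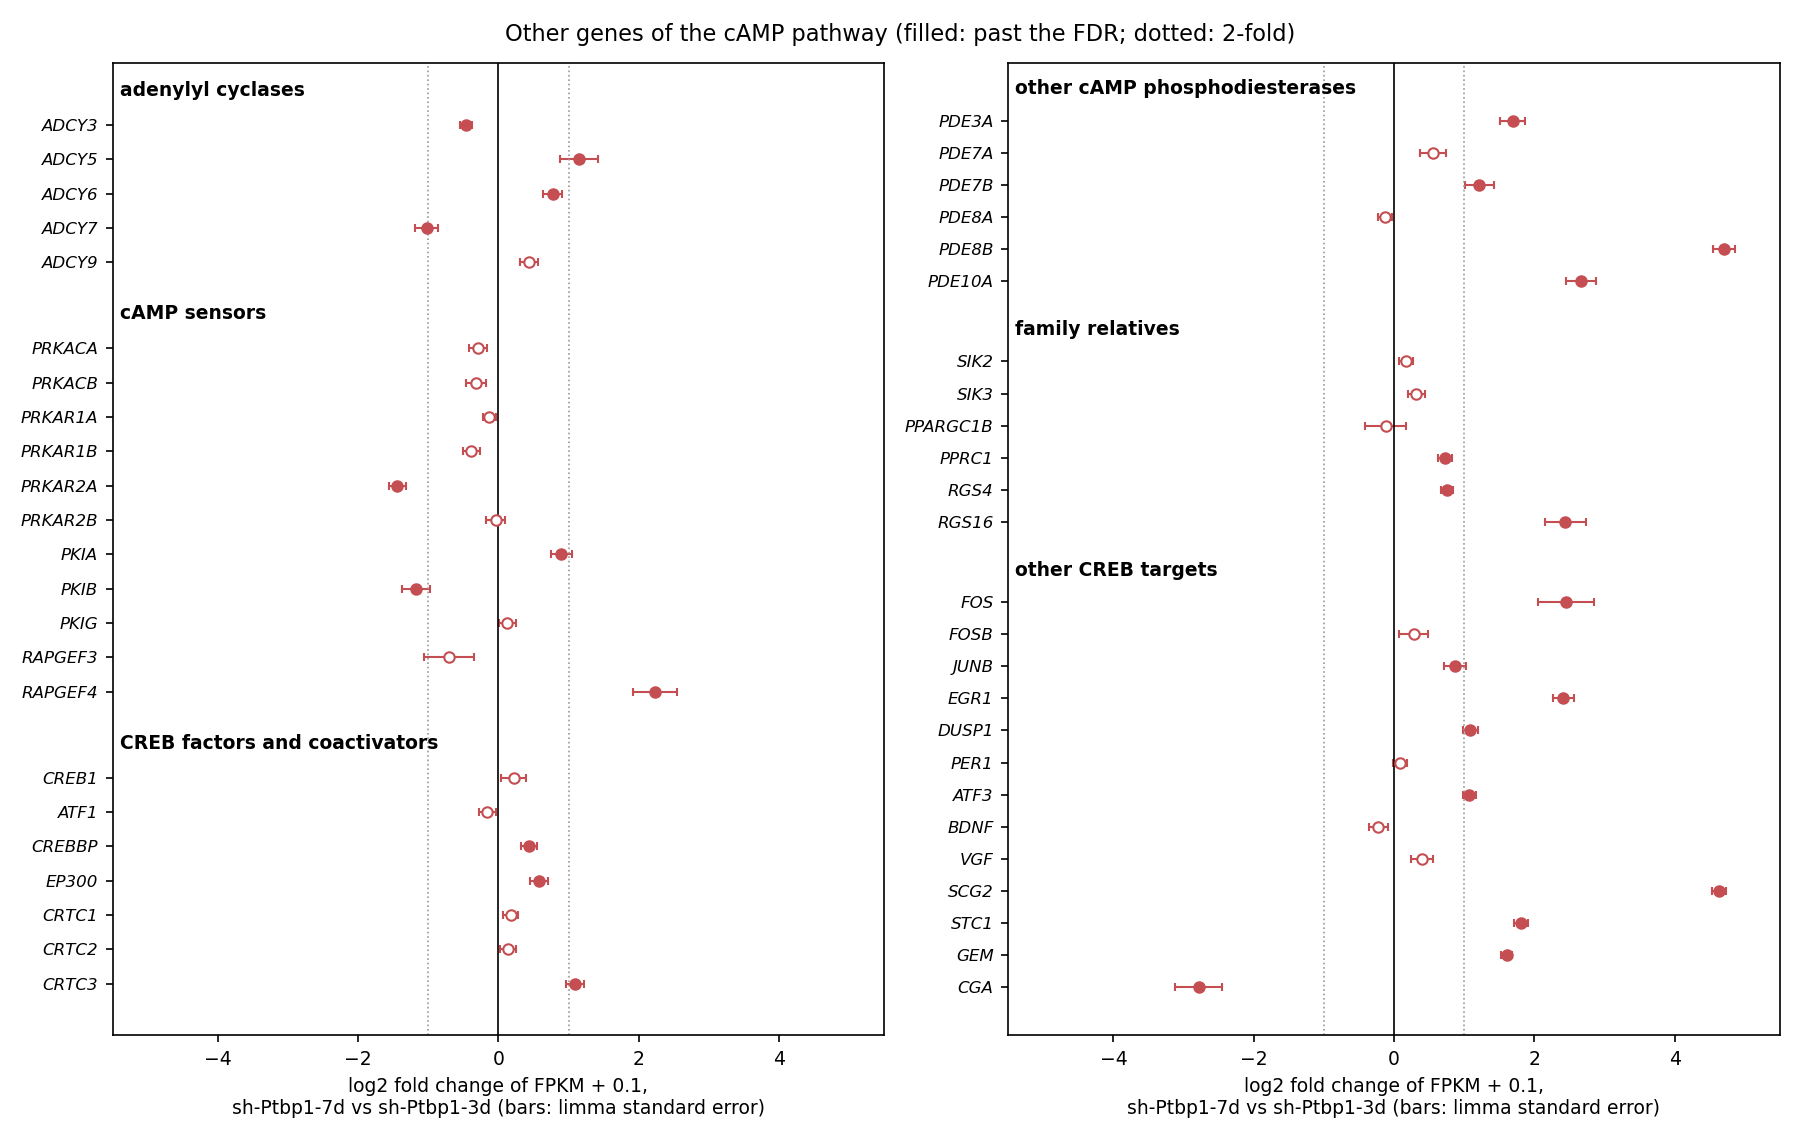
Log2 fold change of FPKM + 0.1 from sh-Ptbp1-3d to sh-Ptbp1-7d for 48 of the 49 tested genes of the 6 pathway lists, with bars for the standard error of limma, filled points for genes past the FDR and dotted lines at 2-fold (PCK1, listed at 0 at 3 dpi, is left out). PDE8B (4.71) and SCG2 (4.63) lie farthest to the right, CGA (-2.79) and PRKAR2A (-1.44) farthest to the left, and PRKACA, PRKACB, CREB1 and ATF1 lie near 0 with open points.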

How the data were processed

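RNA of U251 cells was sequenced on Illumina HiSeq in 9 libraries, grouped by their labels. The reads had been filtered and mapped by the authors, who deposited FPKM for each gene and library. The submitters' processing notes name HISAT2 and GRCh38, and the counting program, the annotation behind the FPKM and any use of strand are not given in the sources used here. The authors also deposited coordinates (another kind of value) of loci assembled by StringTie, which were used to look for assembled loci near the 10 genes, and 0 of the 10 had one within 5 kb.

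Here, genes under a mean of 0.1 FPKM were left out, and log2(FPKM + 0.1) of the remaining 15551 was fitted with limma 3.58.1 (R 4.3.3), with 3 groups in one model, an intensity trend and Benjamini-Hochberg adjustment. The thresholds on fold and FDR are those of the study's methods for both comparisons with sh-Ptbp1-3d, and those of 3 against 7 dpi of knockdown were also used here for sh-Ptbp1-7d against the control. Ratios were tested by exact permutation, two-sided. The fitting code was tested on simulated data before use. Python 3.11.15 and matplotlib 3.10.9 drew the figures.

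The 10 genes, the pathway lists and the markers were chosen with earlier results of these data known. Named from the lists were the genes past both thresholds, up to 6 per list by size of change, with CREB1, ATF1, PRKACA, PRKACB, SIK2 and SIK3, and the genes with the 5 highest correlations to the average of the 10. RGS4, PPARGC1B, PPRC1, PDE8A, CREBBP, EP300, BDNF, PER1, FOSB, VGF, GEM, DUSP1, ATF3, JUNB, PRKAR1B, PKIA, ADCY3, ADCY6 and ADCY9 were named after their values were seen. Symbols were placed with GENCODE v29, which holds 97.6% of them. Alternatives were a pseudocount of 1 or 0.01, a minimum mean of 0 or of 1 FPKM, scaling by median ratio, by quantiles or to TPM, fits without assembled loci, without the third group, without the trend or with a replicate block, each library left out in turn and, added after seeing the data, sh-Luci-3d replicate 3 and sh-Ptbp1-7d replicate 3 left out together.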

Additional observations from a re-analysis of the deposited data

How the results depend on the processing

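Over 21 alternatives, the number of the 10 genes past both thresholds was 5 to 6 between 3 and 7 dpi of knockdown (5 as reported) and 5 to 7 between sh-Luci-3d and sh-Ptbp1-7d (6 as reported), and the number past the FDR was 7 to 8 and 7 to 9. For the pathway lists it was 24 to 32 and 22 to 29. The share of all genes passing under each alternative, the replicate block included, is not given, so these counts are not set against it. That share can move: between the groups of 3 dpi it was 0.0322% past the FDR as reported and 6.37% without sh-Luci-3d replicate 3. RGS2, PDE4B, PPARGC1A, NR4A2, PDE4D, CREM and SIK1 rose past the FDR against both groups under every alternative. PDE4A lost its fall against sh-Ptbp1-3d in 5 of 20 alternatives, passed both thresholds in 5 others, and gained one against sh-Luci-3d with quantile normalization (-0.80, limma adjusted p = 0.0065). PDE4A and NR4A3 were not tested with a mean of at least 1 FPKM. Between the groups of 3 dpi, the pathway count ran from 0 to 5 with single libraries left out and was 6 with the 2 libraries left out together, when PDE4D alone of the 10 genes passed (1 gene, -0.26, limma adjusted p = 0.0407). The libraries left out are those in which PDE4D was low, so this call was not read as a change at 3 dpi. Differences near 0 there changed sign: NR4A2 to -0.081 without sh-Luci-3d replicate 3 and also without the 2 libraries (range with single libraries left out -0.081 to 0.11), PDE4D to 0.050 and 0.039 without sh-Luci-3d replicate 1 or 2, and PPARGC1A to 0.013 and 0.011 without replicate 1 of sh-Luci-3d or of sh-Ptbp1-3d (range -0.14 to 0.013). The cause was not tested. TPM moved the median log2 fold change of all genes from 0.092 to 0.19 between 3 and 7 dpi of knockdown.

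Over all genes tested, the deviations of same-numbered libraries from their group means were nearly uncorrelated (-0.032 to 0.051). This does not settle whether the numbers pair the libraries. In genes spanning at least 200 kb, replicate 3 of sh-Luci-3d and of sh-Ptbp1-7d were both low (median log2 deviations of -0.17 and -0.13). Replicate 3 of sh-Ptbp1-3d was at -0.043 there, near its -0.049 over shorter genes. With the replicate number as a block, 5 and 8 of the 10 genes passed both thresholds and the FDR between 3 and 7 dpi of knockdown, 6 and 8 between sh-Luci-3d and sh-Ptbp1-7d, and 0 and 0 at 3 dpi, as without it, and pathway counts were 27, 26 and 0. The unknown depth and 3 libraries a group limit the precision, most for genes under 1 FPKM such as NR4A3.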
